A study of Bos taurus with 12 samples.

Results

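Methylated DNA of tough beef was compared between 2 elution steps of the same captures, the medium (MTO) and the low (LTO) methylated eluate. The comparison used 4 of the 12 libraries of the study: MTO_1 and MTO_2 against LTO_1 and LTO_2. Peaks of these 4 lists that shared 1 bp or more were joined into regions on autosomes 1 to 29, which gave 56276 regions. Of these, 4791 had a peak in both MTO libraries and in neither LTO library (medium-only, 8.51%), 3234 had a peak in both LTO libraries and in neither MTO library (low-only, 5.75%), and 7920 had a peak in all 4 libraries (all-four, 14.1%). The classes rest on which peaks were called, so peak presence in these 4 libraries is how they were chosen and not a result about them.

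The muscle was longissimus (named longissimus dorsi in the sample labels) of Angus steers, raised together on the same pelleted diet and slaughtered as yearlings. Tough (TO) and tender (TE) animals stood at the upper and lower ends of shear force in that herd, and 2 animals of each kind were sequenced, without any further treatment. MTO and LTO thus share breed, sex, diet, tissue and toughness, and differ in the elution step. The DNA came from whole muscle, so it is a mixture of the nuclei of muscle fibres and of the other cells of the tissue. Sources disagree on which salt step gave which fraction. The Methods tie low salt to the high methylated DNA. The notes to the read summary tie it to the low eluate, and the Discussion to fragments with few methylated CpGs. MTO and LTO are therefore used here only as names of fractions. By the Methods each capture was eluted in serial steps, so MTO and LTO are fractions from the same 2 animals. No source states that MTO_1 and LTO_1 come from the same animal. The permutation tests below therefore leave the pairing out and treat the libraries as independent, which they are not.

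MBD-seq relies on a methyl-CpG binding domain, a protein module that holds DNA by its methylated CpG dinucleotides. The more methylated CpGs a fragment carries, the tighter it is held, so that steps of increasing salt release fragments of different methylated CpG content. In mammals most CpGs outside CpG islands are methylated, CpGs are sparse in most of the genome, and the ends of chromosomes away from the centromere tend to be rich in G, C and CpG. Cattle autosomes are acrocentric, with the centromere at the end where the base numbering starts.

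MTO libraries gave fewer peaks than LTO libraries, and those peaks were wider and lay closer together. On the autosomes there were 23982 peaks in MTO_1, 24797 in MTO_2, 27783 in LTO_1 and 28599 in LTO_2. Both LTO libraries were above both MTO libraries, by 0.21 on the log2 scale. With 2 libraries against 2, a two-sided exact permutation test cannot go below p = 0.333, and this was its value here. Depth ran in the same direction: once duplicates were dropped, MTO_1 and MTO_2 kept 6010993 and 5969045 tags, and LTO_1 and LTO_2 kept 7981292 and 7212507. Per 1000000 tags left, the order was the opposite, with 3990 and 4154 peaks in MTO and 3481 and 3965 in LTO. The number of peaks and the depth cannot be told apart here. The share of tags left was 42.3% ± 3.03 in MTO and 57.3% ± 0.0979 in LTO (SD, n = 2), so duplicates took more of the MTO libraries.

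Among regions with a peak in 1 eluate only, the eluates also differed in how well their libraries repeated each other. Regions shared between eluates are left out of the next 2 shares. Of the 13872 regions with a peak in MTO only, 34.5% were found in both MTO libraries (Wilson 95% interval 33.8 to 35.3%). Of the 25109 regions with a peak in LTO only, 12.9% were found in both LTO libraries (12.5 to 13.3%). These intervals cover counting error only. LTO_1 alone held 11158 regions and LTO_2 alone 10717, against 4346 for MTO_1 alone and 4735 for MTO_2 alone. In all, 55.0% of the regions had a peak in a single library. Regions in both libraries of MTO and exactly 1 of LTO numbered 3915, and the reverse 1728. With 1 library of an eluate left out, its class needs only 1 peak, and the medium-only regions numbered 9691 without MTO replicate 1 and 9372 without MTO replicate 2, and the low-only regions 14030 without LTO replicate 1 and 14448 without LTO replicate 2.

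**Figure D1:**
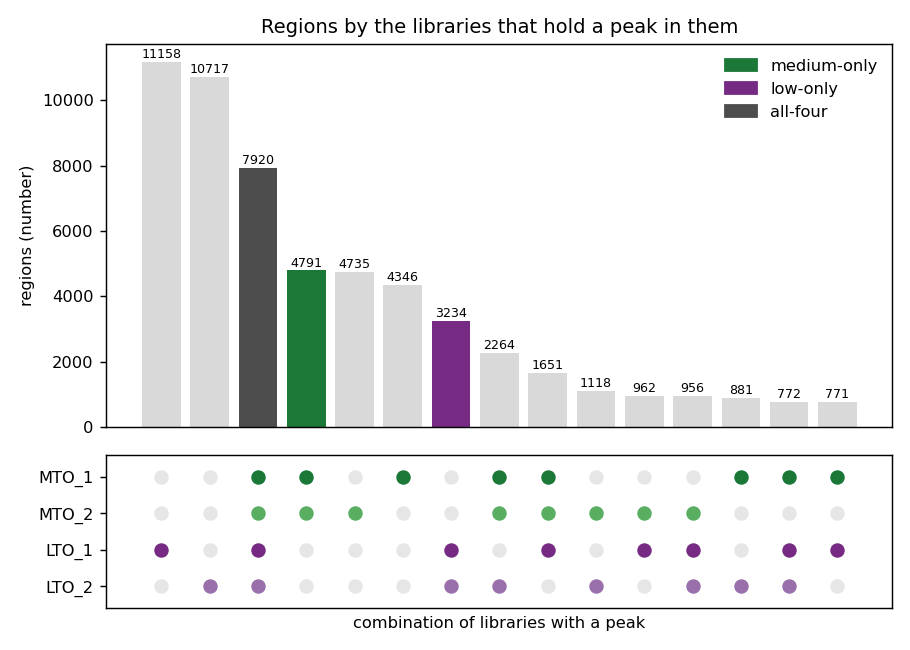
Number of regions (vertical axis) for each of the 15 combinations of libraries that held a peak, with filled dots for the libraries in the combination. The 2 tallest bars are regions of LTO_1 alone (11158) and LTO_2 alone (10717), and the all-four class (7920) comes next, ahead of the medium-only (4791) and low-only (3234) classes.

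Many regions absent from both single lists of an eluate were present in its merged list. Where the reads of both replicates had been merged before calling, 50.2% of the medium-only regions had a peak in the LTO list, and 48.5% of the low-only regions had a peak in the MTO list. Of all joined regions, 84.9% had a peak in the merged LTO list and 67.4% in the merged MTO list. The shares of the 2 specific classes thus cannot be compared with each other as such. That left 2387 medium-only and 1664 low-only regions without a peak of the other eluate at the greater depth. Some specific regions lay near a peak of the other eluate, but most did not. The median distance from medium-only regions was 15550 bp to LTO_1 and 10857 bp to LTO_2. From low-only regions it was 30312.5 bp to MTO_1 and 28714.5 bp to MTO_2. These distances were not measured for all joined regions. Of the medium-only regions, 14.2% were within 1 kb of an LTO_1 peak and 16.3% within 1 kb of an LTO_2 peak, and of the low-only regions 13.4% and 13.7% were within 1 kb of a peak of MTO_1 and MTO_2. Regions of the opposite specific class were seldom that close, with 1.69% of the medium-only regions within 1 kb of a low-only region.

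MTO peaks were the wider ones. The median width was 230 bp in MTO_1, 243 bp in MTO_2, 201 bp in LTO_1 and 181 bp in LTO_2, so both MTO libraries lay above both LTO libraries by 45.5 bp on average (two-sided exact permutation test, p = 0.333). The peak caller lets no peak be narrower than the fragment length that it estimates for a library, and this length was 162 and 175 bp in MTO and 165 and 146 bp in LTO. Divided by it, the median width was 1.42 and 1.39 in MTO and 1.22 and 1.24 in LTO, so the order held. MTO_1 and LTO_1 have nearly the same estimated fragment length and differed by 29 bp. In tender beef the median widths of the eluates overlapped (207.25 ± 9.55 bp medium, 196.5 ± 19.1 bp low, SD, n = 2). Divided by the fragment length they did not, with means of 1.37 and 1.30. Peaks at the minimum width made up 13.6% and 13.7% of the MTO lists and 24.5% and 23.5% of the LTO lists. Peaks of 1 kb or more did not separate the eluates, at 1.31% and 1.42% in MTO and 1.36% and 0.902% in LTO.

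Among the classes, all-four regions held the widest peaks. In MTO_1 the median peak width was 309 bp in all-four regions, 220 bp in medium-only regions and 194 bp in the remaining regions. In LTO_1 it was 304 bp in all-four regions, 196 bp in low-only regions and 180 bp in the remaining regions. MTO_2 (327, 235 and 210 bp) and LTO_2 (271, 177 and 161 bp) had the same order. In each of the 4 libraries the all-four peaks were thus wider than the specific peaks, and the specific peaks wider than the remaining ones. A wider peak more easily shares 1 bp with a peak of another library, so this order follows in part from how the classes were chosen. Joined over the libraries, all-four regions had a median width of 412.5 bp (quartiles 316 and 587 bp), medium-only regions 278 bp and low-only regions 239 bp, but a region joined from 4 peaks is wider by construction. Of the 512 regions of 1 kb or more, 487 were all-four, 9 were medium-only and 0 were low-only.

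Spacing separated the eluates as well. From a peak to the next, the median distance was 18.0 kb in MTO_1 (18008 bp), 19.2 kb in MTO_2 (19209 bp), 40.1 kb in LTO_1 (40052 bp) and 32.0 kb in LTO_2 (31975 bp), although the LTO lists held more peaks. As a part of the mean distance in the library, which takes out the number of peaks, the median was 0.172 and 0.190 in MTO and 0.444 and 0.365 in LTO. LTO peaks were therefore spread more evenly over the autosomes, beyond the spread of the replicates (0.181 ± 0.0126 against 0.404 ± 0.0560, SD, n = 2, two-sided exact permutation test, p = 0.333). The share of peaks with the next peak within 1 kb was 20.3% and 18.2% in MTO and 13.9% and 15.2% in LTO. In tender beef the ratio of median to mean distance overlapped between the eluates (0.218 ± 0.00675 medium, 0.279 ± 0.120 low, SD, n = 2).

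The 3 classes had distinct spacing. The nearest other all-four region lay a median of 2125 bp away, and 41.2% of the all-four regions had one within 1 kb. Their distances fell into a near and a far part, with the lower quartile at 465 bp and the upper quartile at 142366 bp. Medium-only regions lay a median of 32579 bp apart, with 5.43% within 1 kb and 26.6% within 10 kb. Low-only regions lay 187099 bp apart, with 2.23% within 1 kb and 10.98% within 10 kb. Relative to the mean spacing of each class these medians were 0.0067 for all-four, 0.0621 for medium-only and 0.241 for low-only regions, so the order of the classes was not only one of number.

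**Figure D2:**
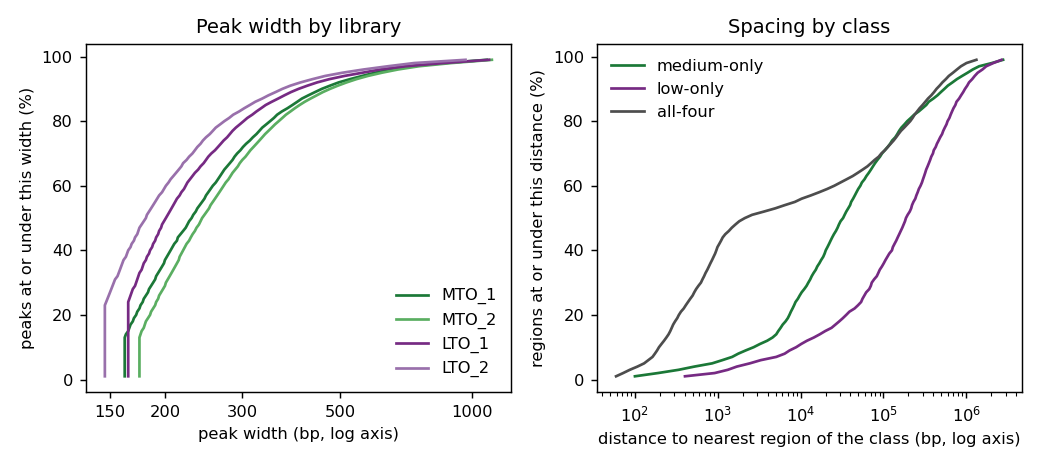
Left, cumulative share of peaks (%) by peak width (bp, log axis) in the 4 libraries; right, cumulative share of regions (%) by distance to the nearest region of the same class (bp, log axis). The vertical starts of the left curves are the fragment lengths of 162, 175, 165 and 146 bp, and the all-four curve on the right rises early, with 41.2% of the regions within 1 kb of another.

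The densest places of the classes were different ones. In fixed windows of 1 Mb, the most medium-only regions, 36, were in chr9:103000001-104000000, near the distal end of chromosome 9, which held 2 low-only and 3 all-four regions. The most low-only regions, 32, were in the first window of chromosome 14 (chr14:1-1000000), beside 18 medium-only and 116 all-four regions. The most all-four regions, 240 or 3.03% of the class, were in chr27:28000001-29000000, with 24 medium-only and 21 low-only regions. The fewest windows that hold 50% of a class numbered 181 for all-four, 186 for medium-only and 381 for low-only regions, of 2529 windows.

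MTO peaks took larger shares of small autosomes and LTO peaks larger shares of large ones. On 9 of 29 autosomes (31%) the share of peaks was higher in both MTO than in both LTO libraries, and on 10 (34.5%) it was higher in both LTO libraries. Of the 10 autosomes under 70 Mb, 8 were higher in MTO and 1 in LTO. Of the 19 longer ones, 1 was higher in MTO and 9 in LTO. The limit of 70 Mb was set after the values were seen. Chromosome 25, one of the most gene-dense cattle autosomes, had the largest difference in favour of MTO, with 3.81% and 3.67% of the MTO peaks and 2.40% and 2.79% of the LTO peaks. Chromosome 18, also gene-dense, had 3.96% and 4.17% in MTO and 3.41% and 3.66% in LTO. In the other direction, chromosome 1 had 4.59% and 4.59% in MTO and 5.24% and 5.03% in LTO, and chromosome 2 had 3.18% and 3.16% in MTO and 3.79% and 3.59% in LTO.

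In regions per Mb, both specific classes tended to be denser on short autosomes, low-only regions included, although LTO peaks took larger shares of long ones. Medium-only regions were densest on chromosome 25 (4.96 per Mb) and chromosome 18 (3.70 per Mb) and sparsest on chromosomes 2 (1.12) and 1 (1.19). Low-only regions varied less, from 0.875 per Mb on chromosome 20 and 0.934 on chromosome 2 to 1.98 on chromosome 18 and 2.93 on chromosome 27. On chromosome 25, low-only regions numbered 51 against 213 medium-only regions. Medium-only regions made up 80.7% of the 2 specific classes there, and 59.7% over all autosomes. With that total share, they outnumbered low-only regions on 27 of 29 autosomes, a count that goes with the totals. All-four regions were densest on chromosome 27 (11.5 per Mb) and chromosome 8 (5.86) and sparsest on chromosomes 2 (1.70) and 10 (1.75). Over the 29 autosomes, density and length had a Spearman's rho of -0.76 for medium-only, -0.62 for low-only and -0.29 for all-four regions (Pearson's r -0.71, -0.56 and -0.30). These are descriptions, since all autosomes share the same 4 libraries.

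**Figure D3:**
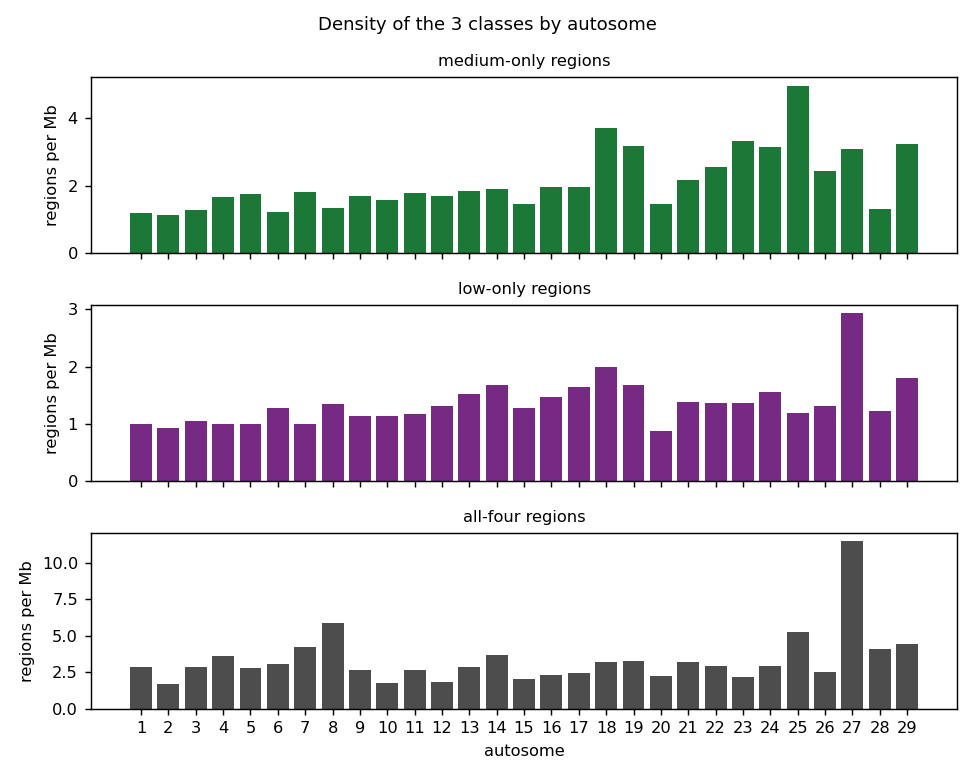
Regions per Mb (vertical axis, with its own scale in each panel) on autosomes 1 to 29 for the 3 classes. Medium-only regions stand highest on chromosome 25 (4.96 per Mb), and low-only and all-four regions on chromosome 27 (2.93 and 11.5 per Mb).

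The position along the autosome also separated the eluates. The part of an autosome farthest from its start, taken as the last 10% of its length up to the last peak seen in any list, held 30.1% and 29.6% of the MTO peaks and 18.9% and 22.1% of the LTO peaks. The means were 29.9% ± 0.314 and 20.5% ± 2.26 (SD, n = 2, two-sided exact permutation test, p = 0.333). This was seen chromosome by chromosome, with both MTO libraries above both LTO libraries on 26 of 29 autosomes (89.7%) and both LTO libraries above on 0 (0%). The first 10%, at the centromere side, differed little, with 11.8% ± 0.0470 in MTO and 12.5% ± 0.0668 in LTO. Of the medium-only regions, 44.1% (Wilson 95% interval 42.7 to 45.5%) lay in the last 10%, against 20.8% (19.4 to 22.2%) of the low-only, 16.9% (16.1 to 17.7%) of the all-four and 26.7% of all joined regions. The classes were chosen from the peak lists of these same libraries, so their distal shares follow in part from those of the libraries. In the middle of the autosomes, from 40 to 60% of the length, the shares were 7.16% of the medium-only, 14.0% of the low-only and 15.8% of the all-four regions.

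The distal share of medium-only regions was the largest on chromosome 5 (68.7%), where it was 24.2% for low-only regions. It exceeded that of the low-only regions on 26 of 29 autosomes, and chromosomes 7, 27 and 28 were the exceptions. Distal medium-only regions had a median width of 287 bp and the others 273 bp. The 2387 medium-only regions with no peak in the merged LTO list were more often distal, at 51.7%, than those with such a peak, at 36.5%. The merged list pools the reads of LTO_1 and LTO_2, so this split repeats in part how the class was chosen. In tender beef the distal share of peaks was 30.4% ± 0.449 in the medium (MTE) and 18.7% ± 0.533 in the low (LTE) eluate (SD, n = 2, two-sided exact permutation test, p = 0.333), although LTE libraries had far fewer peaks than MTE libraries. The high eluate of tough beef (HTO) had 27.3% and 29.6%.

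**Figure D4:**
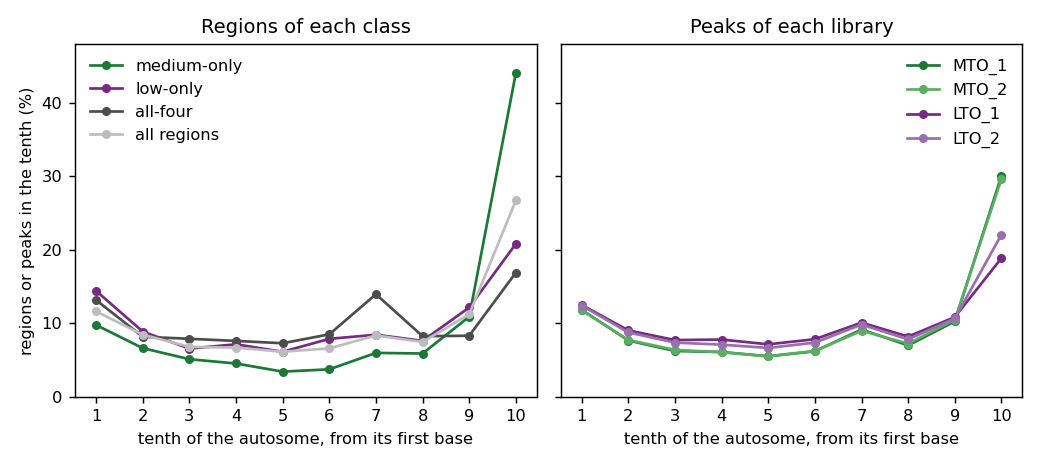
Share (%) of the regions of each class (left) and of the peaks of each library (right) in each of 10 equal parts of the autosomes, counted from the first base, the centromere side. Medium-only regions reach 44.1% in the last part, and both MTO libraries (30.1% and 29.6%) lie above both LTO libraries (18.9% and 22.1%) there.

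Medium-only regions recurred in other animals and in the neighbouring high eluate. In tender beef, whose libraries the choice of regions did not use, 72.4% of the medium-only regions had a peak in MTE_1 and 78.7% in MTE_2, but 1.80% in LTE_1 and 4.76% in LTE_2. The means, 75.6% ± 4.46 and 3.28% ± 2.096 (SD, n = 2, two-sided exact permutation test, p = 0.333), stand beside 46.8% ± 1.22 and 17.1% ± 4.80 of all joined regions. LTE lists hold far fewer peaks than MTE lists, so the MTE and LTE shares cannot be compared as such. Against all joined regions, the MTE share was higher and the LTE share lower. The same pattern of both medium and neither low libraries in tender beef was met by 58.7% of the medium-only regions (Wilson 95% interval 57.3 to 60.1%), 9.99% of the low-only regions and 21.5% of all joined regions. The reverse pattern was met by 1 medium-only region. In the high eluate of tough beef, 37.3% had a peak in HTO_1 and 44.5% in HTO_2, against 17.2% and 19.9% of all joined regions, and in that of tender beef (HTE) 42.2% and 50.9%, against 18.2% and 21.1%. Of the medium-only regions, 12.1% had no peak in any of the 4 tender libraries of the medium and low eluates, against 38.6% of all joined regions.

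Low-only regions recurred in tender beef more often than all joined regions in the low eluate, and less often than all joined regions in the medium eluate. They had a peak in LTE_1 in 24.1% and in LTE_2 in 36.8% of cases, above the 13.7% and 20.5% of all joined regions. In MTE_1 and MTE_2 the shares were 37.0% and 37.2%, below the 46.0% and 47.7% of all joined regions. MTE lists hold 33562 and 35688 autosomal peaks and LTE lists 9555 and 16881, so the shares in MTE and LTE cannot be compared as such. Both low and neither medium libraries of tender beef had a peak in 6.37% of the low-only regions (Wilson 95% interval 5.58 to 7.26%), against 0.842% of all joined regions and 0.0209% of the medium-only regions. For the 1664 low-only regions without a peak in the merged MTO list, the shares were 25.7% and 36.8% in LTE and 22.5% and 23.1% in MTE. In the high eluates low-only regions were nearly missing, with 0.773% and 1.45% in HTO and 1.02% and 1.36% in HTE. No tender library of the medium or low eluates had a peak in 30.8% of them, against 38.6% of all joined regions.

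**Figure D5:**
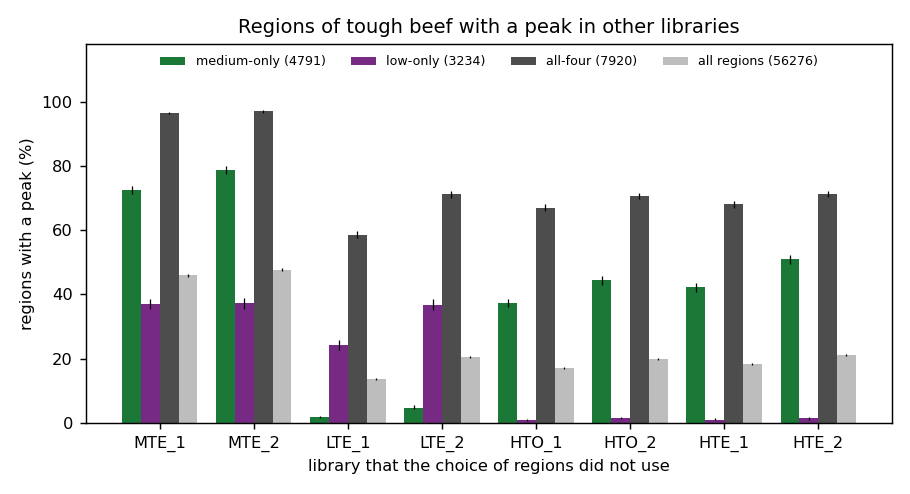
Share of regions (%) with a peak in each of the 8 libraries outside the comparison, for the 3 classes and for all joined regions, with Wilson 95% intervals that cover counting error only. Medium-only regions stand at 72.4% and 78.7% in MTE and at 1.80% and 4.76% in LTE, and low-only regions stay under 1.5% in all 4 high libraries (HTO and HTE).

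Recurrence differed between strong and weak regions, in some lists only. Pileup, the number of tags stacked over a peak's summit, was not scaled to depth, so it was ranked within each list from 0 to 100. Medium-only regions were put into 4 equal bins by their lower rank in the 2 MTO libraries, and the share with a peak in HTO_1 was 17.8% in the lowest and 59.0% in the highest bin, and the share in MTE_1 63.7% and 76.0%, with the highest value, 78.1%, in the bin just below the highest. In LTE_1 it went the other way, from 2.42% in the lowest to 1.67% in the highest bin, and in LTE_2 from 7.01% to 4.17%. In the corresponding bins of the low-only regions, the share in LTE_1 was 12.5%, 11.3%, 16.7% and 56.1% from the lowest to the highest bin, a rise that lay in the highest bin, the share in MTE_1 was 30.7% in the lowest and 46.6% in the highest, and the share in HTO_1 stayed at 0.494% and 1.24%. Even the strongest low-only regions were thus seldom in a high list.

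By pileup rank all-four regions lay far above the specific classes, and by fold enrichment below them. The median rank of medium-only regions was 46.0 in MTO_1 and 52.4 in MTO_2. For low-only regions it was 53.6 in LTO_1 and 36.6 in LTO_2. All-four regions had medians of 77.5 and 79.5 in MTO and 83.3 and 82.5 in LTO. Stronger peaks are called more often, and this order follows in part from how the classes were chosen. The median fold enrichment of peaks in all-four regions was 6.07 and 6.10 in MTO and 5.12 and 5.46 in LTO, against 6.70 and 6.57 in medium-only regions and 5.97 and 6.41 in low-only regions.

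Within the all-four class the eluates ranked the regions largely alike, but less so than the replicates of an eluate did. Spearman's rho of the ranks was 0.849 to 0.872 between eluates, 0.959 within MTO and 0.944 within LTO. Ranks among the all-four regions alone leave out the other peaks of each list. On these ranks, a region differed by a median of 3.08 between the MTO libraries, 4.60 between the LTO libraries and 10.2 between eluates. In the full lists these medians were 2.32, 2.37 and 6.56, of which the last includes the offset between the class medians of MTO and LTO. Ranked in their full lists, 2095 of the 7920 all-four regions (26.5%) were higher in both MTO libraries and 3452 (43.6%) higher in both LTO libraries. Ranked among the all-four regions alone, a choice made after the data were examined, the balance turned, with 3364 (42.5%) higher in MTO and 2304 (29.1%) higher in LTO. Ranks of fold enrichment in place of pileup gave 3841 and 1279, and ranks of −log10 q gave 2786 and 2062. The number in each direction therefore depends on the scale, and without LTO replicate 1 the number higher in MTO in the full lists was 3856.

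Where all 4 MTE and LTE libraries also had a peak, the eluate in which an all-four region stood higher was largely shared with tender beef. Of the 3364 regions ranked higher in MTO among the all-four regions, 1787 had a peak in all 4 MTE and LTE libraries, and 75.5% of those ranked higher in both MTE than in both LTE libraries, against 2.91% in the reverse direction. Of the 2304 regions ranked higher in LTO, 1694 had such peaks, and 65.7% of those ranked higher in both LTE libraries against 11.6% in both MTE libraries. This need for peaks in all 4 libraries kept 53.1% of the regions higher in MTO and 73.5% of those higher in LTO. The remaining regions of these groups could not be compared in this way. Over all 4197 all-four regions with peaks in the 4 tender libraries, the shares were 43.6% higher in MTE and 30.9% higher in LTE. The high eluate differed between these groups too, with a peak of HTO_1 in 87.0% of the regions higher in MTO and in 59.8% of those higher in LTO, and of HTO_2 in 88.5% and 62.9%. The shares were lowest, 44.6% and 51.8%, in the 2252 regions whose ranks overlapped, and 67.0% and 70.6% over all all-four regions. The groups were alike in width, with medians of 422.5 and 418 bp, and 14.1% and 20.6% of them lay in the last 10% of the autosomes.

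The strongest single regions did not all have the states most frequent in their class. Coordinates are in bosTau8. The strongest medium-only region by the lower −log10 q of the 2 MTO libraries was chr27:23690712-23690975, with a −log10 q of 45.1 in MTO_1 and 37.1 in MTO_2 and a pileup of 91 and 83 tags. It also had peaks in both MTE, both LTE, both HTE and 1 HTO library and in the merged LTO list. The next was chr11:107287522-107287787, at the distal end of chromosome 11, with −log10 q of 34.5 and 34.7. It had peaks in both MTE libraries and all 4 high libraries, and none in LTE or in the merged LTO list. The other regions of the top 5 lay in the first Mb of chromosome 14 (chr14:494217-494534, chr14:405470-405784 and chr14:495237-495524) and had peaks in the same 6 libraries outside the comparison as the region on chromosome 11. Fold enrichment was 7.25 and 6.42 in the region on chromosome 27. In the regions on chromosomes 11 and 14 it was only 2.42 to 3.22, against class medians of 6.70 in MTO_1 and 6.57 in MTO_2.

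The strongest low-only region was chr7:89225467-89225916, with a −log10 q of 55.8 in LTO_1 and 66.6 in LTO_2 and a pileup of 153 and 159 tags. It was absent from the merged MTO list and present in both MTE and both LTE libraries. The fifth, chr7:83304283-83304594, had the highest fold enrichment over the local background of this set, 15.30 and 19.95, with a pileup of only 35 and 44 tags. The others were chr16:13667770-13668193, chr14:1343578-1343913 and chr27:26343615-26344058. All 5 had peaks in the 4 tender libraries of the medium and low eluates, and 4 of the 5 had a peak in the merged MTO list. A peak in a high library was seen for 1 of them, chr14:1343578-1343913 in HTE_1.

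Among all-four regions, the gap in rank in favour of MTO was largest at chr18:20318316-20319149, with pileups of 17 and 18 tags in MTO (ranks 67.2 and 71.1) and 6 and 6 in LTO (ranks 1.92 and 1.71). It had peaks in both MTE and all 4 high libraries and in neither LTE library. The same holds for chr5:24475971-24476599, while chr23:6491392-6491820, with pileups of 16 and 20 in MTO and 6 and 6 in LTO, also had a peak in LTE_2. In favour of LTO it was largest at chr26:14102444-14102832, with pileups of 8 and 8 in MTO (ranks 10.6 and 9.92) and 25 and 24 in LTO (ranks 79.9 and 79.1). This region, chr17:74788861-74789752 and chr15:69056467-69056713 had peaks in all 4 tender libraries of the medium and low eluates and in no high library. These 6 regions were picked for their difference in rank, and only their state in the other 8 libraries is a measurement beyond that choice.

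The widest regions lay on chromosomes 8, 16 and 11. The widest medium-only region, chr8:106032153-106033465 (1313 bp), was called as 1 peak in MTO_1 and 3 peaks in MTO_2 and had peaks in both MTE and all 4 high libraries. The widest low-only region, chr16:4111858-4112711 (854 bp), had peaks in all 4 tender libraries of the medium and low eluates and in HTO_2. The widest all-four region, chr11:13094983-13099662 (4680 bp), had peaks in all 8 other libraries, with pileups of 284 and 296 tags in MTO and 251 and 219 in LTO.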

How the data were processed

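MBD-seq libraries of 50 bp reads were cleaned with SOAPnuke, aligned to bosTau8 with BWA (0.7.7 in the submitters' processing notes) and kept where uniquely mapped. The authors called peaks with MACS2 without a control library, keeping 1 tag per position, with the regional background taken over 10000 bp, on single libraries (2.1.1.20160309, effective genome size 2600000000 bp) and on merged replicates (2.1.0.20150731, 2660939081 bp). The deposited lists give each peak's pileup, a signal in tags that is not divided by depth, its fold enrichment (the ratio of pileup to the background expected there), −log10 p and −log10 q, all as the authors' caller wrote them. They were used only within a list. MTO and LTO libraries kept 5969045 to 7981292 tags once duplicates were dropped.

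Peaks were joined and counted in Python (3.11.15) using pandas (2.3.3), scipy (1.17.1) and numpy (2.4.6). Joining was tested on simulated lists, and overlaps were checked with bedtools 2.31.1. Chromosome lengths were taken as the last base under a peak in the lists used. Values of MTO and LTO libraries were set against each other by exact permutation tests (two-sided, 2 against 2). MTO and LTO are serial fractions from the same 2 animals, but nothing says which libraries form a pair. The tests leave this pairing out, and p-values measure only the spread between these libraries. Wilson intervals have a level of 95%.

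The comparison, the classes and the measures were chosen with earlier results of these data known. Regions named are, by rule, the 5 strongest medium-only and low-only regions by the lower −log10 q, the 3 all-four regions with the largest gap in rank in each direction, the widest region and the densest 1 Mb window of each class. Chromosomes named are the 2 densest and 2 sparsest of each class and the 2 with the largest difference between eluates in each direction. Chromosomes 5, 7, 27 and 28 in the account of distal shares were named after their values were seen. Alternatives are given at the end. Merged lists of the high eluates, genes, CpG content and sequence were not analysed here, for want of a bosTau8 genome in this work.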

Additional observations from a re-analysis of the deposited data

Results flagged for a closer look

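The direction of the eluates in number of peaks was opposite in the 2 kinds of beef, with each library following its group. On the autosomes, the low minus medium difference in mean peak number was 3801.5 in tough beef and -21407 in tender beef. Per 1000000 tags left the directions were not opposite, with a low minus medium difference of -349 peaks in tough and -3132 in tender beef. In the same way, the low minus medium difference in the share of peaks with the next peak within 1 kb was -4.66 percentage points in tough beef and 3.75 in tender beef. Neither difference between tough and tender beef was tested.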

How the results depend on the processing

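Of 95 alternative values beside those without a library and those with a block, 79 kept their direction or, for counts, stayed within 1.5 times the value reported. With the same number of peaks taken from each library, the number of peaks has no difference by construction and was not counted. The log2 difference in peaks of LTO over MTO turned from 0.21 to -0.052 with only peaks of −log10 q of at least 5, and to -0.13 per 1000000 tags left. With −log10 q of at least 5, low-only regions fell to 2106 and all-four regions to 6507, while medium-only regions rose to 5351. With fold enrichment of at least 3, all-four regions fell to 5030, of which 915 ranked higher in MTO and 2120 in LTO. Ranks of fold enrichment gave 3841 and 1279, ranks of −log10 q 2786 higher in MTO and 2062 in LTO, which turns the balance of 2095 and 3452, and ranks among the all-four regions, added after the data were examined, 3364 higher in MTO. On the merged lists, with 1 list per eluate, there were 17975 medium-only, 80712 low-only and 37389 shared regions. There the MTE minus LTE difference fell from 72.3 to 51.2 percentage points for medium-only regions. For low-only regions it fell from 6.60 to 0.327 points. Both count among the values that kept their direction. Regions with no peak in the merged list of the other eluate, also added later, numbered 2387 and 1664, and for the low-only ones the MTE minus LTE difference turned from 6.60 to -8.50 percentage points. The cause of these changes was not tested, except that merged lists need only 1 peak.

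Without 1 library the medium-only regions ranged from 6466 to 9691, the low-only regions from 4025 to 14448 and the all-four regions higher in MTO from 2499 to 3856. The differences in width (-55.5 to -35.5 bp), relative spacing (0.184 to 0.263) and distal share (-11.0 to -7.80 percentage points) kept their sign.

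Replicate numbers are shared between eluates without a stated pairing. Over 29 autosomes the replicate differences of MTO and LTO had a correlation of -0.025, and regions with 1 library of each eluate had the same number in 1889 and different numbers in 1843 cases. With the replicate number as a block, the means stayed by construction (0.21 on the log2 scale for peaks, -45.5 bp for width, 0.223 for relative spacing, -9.39 points for the distal share, and 72.3 and 6.60 points for medium-only and low-only regions in tender beef), and an exact sign-flip test over 2 pairs cannot go below p = 0.50.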
